A study of Mus musculus with 6 samples.

Results

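The cholesterol synthesis genes *Srebf2*, *Insig1*, *Hmgcs1*, *Idi1*, *Fdps*, *Fdft1*, *Sqle*, and *Cyp51* were followed in interscapular BAT (iBAT) of control and *ob/ob* mice. Their probes were found through the RefSeq accession printed beside each probe on the array, without use of any measured value. The genes themselves were chosen with earlier results of these data known. These 8 genes had 10 probes of 39429 on the array, and all 10 probes were among the 35448 that passed the filter on dim signals. The set was drawn up under a name that also covers cholesterol uptake, but 6 of its genes encode enzymes of synthesis and the other 2 encode regulators, and none is an uptake gene, so uptake genes are given from a separate list. Total RNA came from 3 control and 3 *ob/ob* iBAT samples, all from male C57BL/6 mice. The labels give an age of 16 weeks in both groups. *ob/ob* mice lack functional leptin in every tissue and are obese from a young age, so the genotype is not limited to fat. No other allele or treatment is named for either group, and nothing in the labels tells whether a sample is 1 animal or a pool, so the p values measure the spread between these samples only. Each sample was read on 1 single-dye Agilent array.

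Cells make cholesterol from acetyl-CoA through mevalonate, isoprenoid diphosphates, squalene, and lanosterol. The transcription factor SREBP2, encoded by *Srebf2*, drives the genes of this route when sterol in the endoplasmic reticulum runs low, and the INSIG proteins hold it back when sterol is plentiful. In adipose tissue, much of the cholesterol lies in the lipid droplet and is taken up from lipoproteins as well as made in the cell.

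The promoters of *Srebf2*, *Insig1*, and *Hmgcs1* are shown because the first 2 encode the regulators of the set and the last was the only one of the available windows to hold the sterol regulatory element searched for. RefSeq windows of assembly GRCm38.p6, which run from 250 bases before each start to 50 bases after it, were at hand for 5 of the 8 genes, namely *Srebf2*, *Insig1*, *Hmgcs1*, *Idi1*, and *Cyp51*. No window was matched for *Sqle*, *Fdps*, and *Fdft1*. The 250 bases before the start are printed, and all 3 lie on the plus strand, *Srebf2* at chr15:82147019-82147268, *Insig1* at chr5:28071162-28071411, and *Hmgcs1* at chr13:119690101-119690350. Capitals mark every match, on either strand, to TCACCCCAC (the core of the sterol regulatory element), TCACNCCAC (its looser form), CACGTG (E-box), CCAAT (NF-Y box, ATTGG on the opposite strand), and GGGCGG (GC box, CCGCCC on the opposite strand).
Srebf2: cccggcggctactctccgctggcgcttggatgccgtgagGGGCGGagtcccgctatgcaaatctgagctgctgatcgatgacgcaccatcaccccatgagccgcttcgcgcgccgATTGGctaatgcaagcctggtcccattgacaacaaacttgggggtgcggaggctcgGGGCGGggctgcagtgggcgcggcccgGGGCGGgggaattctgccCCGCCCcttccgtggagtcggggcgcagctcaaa
Insig1: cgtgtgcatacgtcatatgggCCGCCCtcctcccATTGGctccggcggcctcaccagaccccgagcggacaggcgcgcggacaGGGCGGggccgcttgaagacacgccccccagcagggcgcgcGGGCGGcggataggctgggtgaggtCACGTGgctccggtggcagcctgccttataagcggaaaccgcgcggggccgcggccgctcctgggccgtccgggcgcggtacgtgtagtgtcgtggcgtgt
Hmgcs1: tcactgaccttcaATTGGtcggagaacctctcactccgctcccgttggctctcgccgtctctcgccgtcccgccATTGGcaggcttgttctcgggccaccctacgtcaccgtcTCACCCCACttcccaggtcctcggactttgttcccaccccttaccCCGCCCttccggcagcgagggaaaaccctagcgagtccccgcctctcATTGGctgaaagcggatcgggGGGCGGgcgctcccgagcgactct

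The sterol regulatory element core was found in 1 of the 5 windows, that of *Hmgcs1*, from 137 to 129 bases before the start, and in 0.551% of all 32851 windows. Its looser form matched at the same bases and at no other place in the 5 windows, compared with 1.24% of all windows. The E-box was found in 1 of the 5 windows, that of *Insig1*, from 101 to 96 bases before the start, and in 7.15% of all windows. The NF-Y box was in all 5 windows and in 37.4% of all windows, with 4 copies in *Hmgcs1*, 2 in *Idi1*, and 1 in each of the other 3. When only the strand of the gene was read, 1 of the 5 windows, that of *Cyp51*, held CCAAT. The GC box was in all 5 windows and in 35.7% of all windows, with 5 copies in *Srebf2*, 3 in *Hmgcs1*, 3 in *Insig1*, and 1 in each of the remaining ones. The share of G and C was 52.3% in the *Idi1* window and 64.7% to 71.7% in the other 4, compared with a median of 52.7% over all windows. A match describes the letters only, and elements that depart from these letters were not searched for. A window without a match may thus still hold such an element.

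Signals are given as log2 values of the spot intensity after quantile normalization, which makes the distribution of values the same on every array. Levels of different genes are not compared, since probes differ in brightness. Between 83.5% and 89.9% of spots on each array were well above background, no spot was saturated, and the 75th percentile of the signal before normalization ran from 94.5 to 291.8. The arrays did not group by genotype. Over all 19011 genes with a tested probe, control 3 differed less from *ob/ob* 1 (root mean square difference of 0.74 log2 units) and *ob/ob* 2 (0.63) than from control 1 (1.70) and control 2 (1.49). Likewise, *ob/ob* 3 was nearer to control 1 (1.05) and control 2 (1.30) than to *ob/ob* 1 (1.86) and *ob/ob* 2 (2.05). For this reason, the differences between groups below are given with all 6 arrays and also without control 3 and *ob/ob* 3.

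The cholesterol synthesis genes followed the same grouping of the arrays. Over the 8 genes, control 1 and control 2 differed by 0.37 log2 units and *ob/ob* 1 and *ob/ob* 2 by 0.33. Control 3 lay 2.01 from control 1 and 1.71 from control 2, but 1.14 from *ob/ob* 1 and 0.88 from *ob/ob* 2. *ob/ob* 3 lay 2.06 from *ob/ob* 1 and 2.19 from *ob/ob* 2, but 0.93 from control 1 and 1.23 from control 2. The greatest distance of any pair of arrays was between control 3 and *ob/ob* 3, 2.54 over the 8 genes and 2.21 over all genes.

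**Figure D1:**
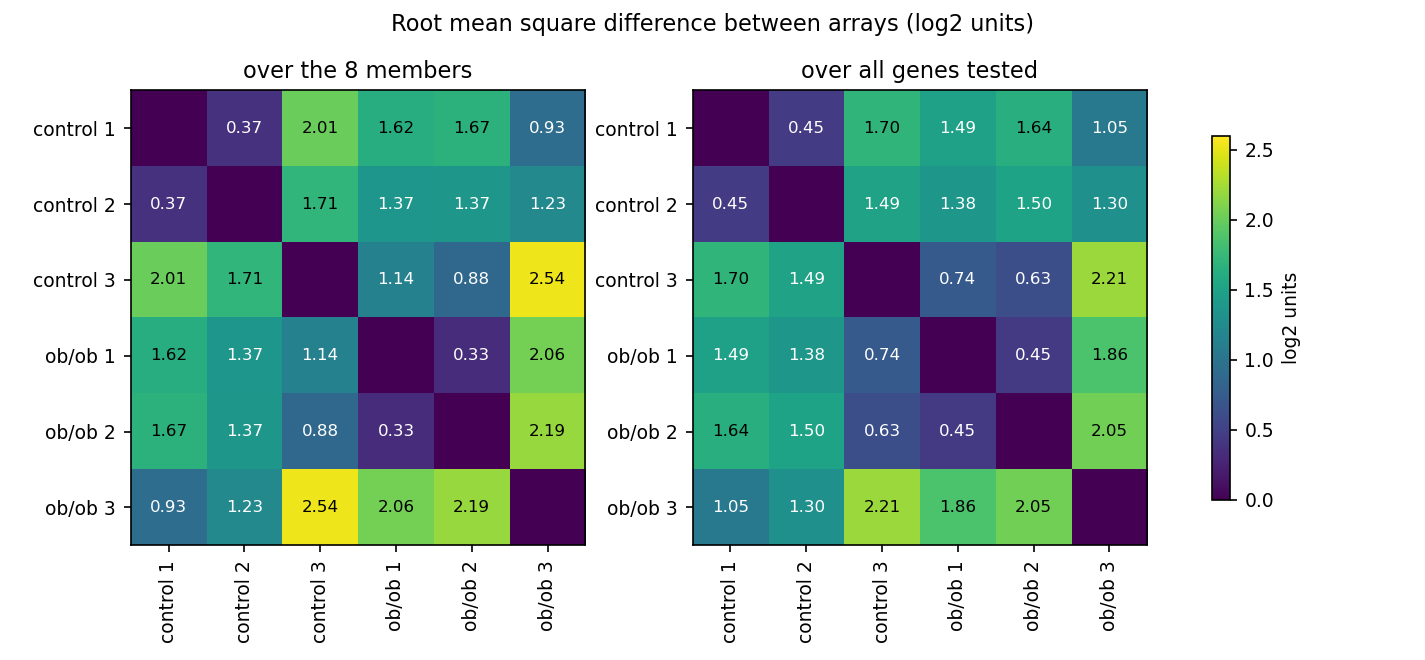
Root mean square difference between each pair of the 6 arrays, in log2 units, over the 8 cholesterol synthesis genes (left) and over all 19011 genes tested (right), with 1 cell per pair and darker cells for arrays that are more alike. Control 1 and control 2 (0.37) and *ob/ob* 1 and *ob/ob* 2 (0.33) are close over the 8 genes, whereas control 3 and *ob/ob* 3 (2.54) are farthest apart.

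None of the cholesterol synthesis genes differed between *ob/ob* and control iBAT beyond the spread of the replicates when all 6 arrays were used. By limma with Benjamini-Hochberg adjustment over all probes, 0 of the 8 genes and 0 of 35448 probes (0%) had an adjusted p under 0.05. At an unadjusted p under 0.05, limma found 1245 probes, and 710 genes by their brightest probe (3.73% of 19011), whereas 0 of the 8 genes were among them. The methods' t-test gave 1512 probes at an unadjusted p under 0.05 and 0 after adjustment. The log2 difference, *ob/ob* minus control, was below 0 for 6 of the 8 genes, compared with 57.2% of all genes. The median over the 8 genes was -0.16, compared with -0.086 over all genes. With 3 samples against 3, the exact 2-sided permutation test used for single genes cannot give a p below 0.10. The limma adjusted p was 1.0 for each of the 10 probes. Values below are listed in the order of arrays 1, 2, and 3 of a group.

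*Srebf2* was on average higher in the *ob/ob* samples, and the groups overlapped. By its brighter probe, *Srebf2* gave 4.51, 4.27, and 5.51 on control arrays, against 6.24, 5.82, and 5.14 on *ob/ob* arrays. Control 3 was the highest control and *ob/ob* 3 the lowest *ob/ob* sample, and only *ob/ob* 3 fell below a control. The mean was 4.77 ± 0.66 (SD, n = 3) in controls and 5.74 ± 0.55 (SD, n = 3) in *ob/ob* samples, a log2 difference of 0.97 (SE 0.49, exact permutation p = 0.20). The difference was 0.50 with scaling to the 75th percentile, 0.32 with normexp background correction, and 0.41 with the mean of both probes. A second, dimmer *Srebf2* probe, not above background in *ob/ob* 2, gave 4.93, 4.90, and 4.71 on control arrays, against 4.58, 4.26, and 5.28 on *ob/ob* arrays. The 2 probes disagreed in direction, since the second probe differed by -0.14 (SE 0.38, exact permutation p = 0.70).

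*Insig1*, whose protein retains the SREBP complex in the endoplasmic reticulum and whose gene is itself a target of SREBP2, was on average lower in the *ob/ob* samples. Its signal was 6.90, 6.82, and 6.01 on control arrays, against 5.81, 6.12, and 5.90 on *ob/ob* arrays. Control 1 and control 2 lay above all other arrays, and only *ob/ob* 2 exceeded control 3. The log2 difference was -0.63 (SE 0.37, exact permutation p = 0.20), from 6.57 ± 0.49 in controls to 5.94 ± 0.16 in *ob/ob* samples (SD, n = 3 each). The signal of *ob/ob* 3 was 0.086 above that of *ob/ob* 1, whereas it was higher by 1.25 in *Fdps*.

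*Hmgcs1* encodes the cytosolic HMG-CoA synthase, which supplies the substrate for mevalonate. *Hmgcs1* gave 10.77, 10.33, and 8.05 on control arrays, against 8.27, 8.16, and 10.28 on *ob/ob* arrays. Its values formed a high set of control 1, control 2, and *ob/ob* 3 and a low set of control 3, *ob/ob* 1, and *ob/ob* 2, with no value between 8.27 and 10.28. The log2 difference between groups was -0.82 (SE 0.91, exact permutation p = 0.60).

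*Idi1* encodes the isomerase that interconverts the isoprenoid diphosphate units. Its signal was 9.44, 8.90, and 5.44 on control arrays, against 8.45, 7.75, and 10.60 on *ob/ob* arrays. Control 3 was the lowest array and *ob/ob* 3 the highest. *Idi1* averaged higher in the *ob/ob* samples, by 1.01 (SE 1.24, exact permutation p = 0.60), and without control 3 the difference was -0.23.

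*Fdps* encodes farnesyl diphosphate synthase, the branch point to sterols and to other isoprenoids. *Fdps* gave 8.26, 8.16, and 7.13 on control arrays, against 6.85, 6.98, and 8.10 on *ob/ob* arrays. Each of *ob/ob* 1 and *ob/ob* 2 lay below all controls, and *ob/ob* 3 lay close to control 1 and control 2. The difference between groups was -0.54 (SE 0.51, exact permutation p = 0.20).

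*Fdft1* encodes squalene synthase, the first enzyme committed to sterols. By its brighter probe, *Fdft1* was 6.59, 6.66, and 7.50 on control arrays, against 6.93, 6.98, and 6.52 on *ob/ob* arrays, a difference of -0.11 (SE 0.39, exact permutation p = 0.80). Here control 3 was the highest array and *ob/ob* 3 the lowest. The second *Fdft1* probe gave 5.24, 4.73, and 5.20 on control arrays, against 5.36, 5.37, and 5.34 on *ob/ob* arrays. It was the only one of the 10 probes on which every *ob/ob* array lay above every control, but by 0.30 (SE 0.31), and its exact permutation p of 0.10 is the smallest that the design allows. The mean of both *Fdft1* probes differed by 0.095, and the brighter probe by 0.18 without control 3 and by 0.036 without *ob/ob* 3.

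*Sqle* encodes squalene epoxidase, a rate-limiting step of the later pathway. *Sqle* gave 7.00, 6.59, and 5.53 on control arrays, against 5.49, 5.22, and 8.01 on *ob/ob* arrays. The highest array was *ob/ob* 3, and *ob/ob* 1 and *ob/ob* 2 lay below control 3. The difference was -0.14 (SE 0.84, exact permutation p = 0.80), and it was above 0, by 0.17 to 0.37, when control 1, *ob/ob* 1, or *ob/ob* 2 was left out.

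*Cyp51*, the lanosterol demethylase, was well above background only in control 1, control 2, and *ob/ob* 3. Its signal was 5.24, 4.61, and 3.53 on control arrays, against 2.97, 2.94, and 6.95 on *ob/ob* arrays, so the values of control 3, *ob/ob* 1, and *ob/ob* 2 are readings near background. The difference was -0.17 (SE 1.17, exact permutation p = 1), and it was above 0 with normexp background correction (0.061) and when control 1 (0.21), *ob/ob* 1 (0.48), or *ob/ob* 2 (0.50) was left out.

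**Figure D2:**
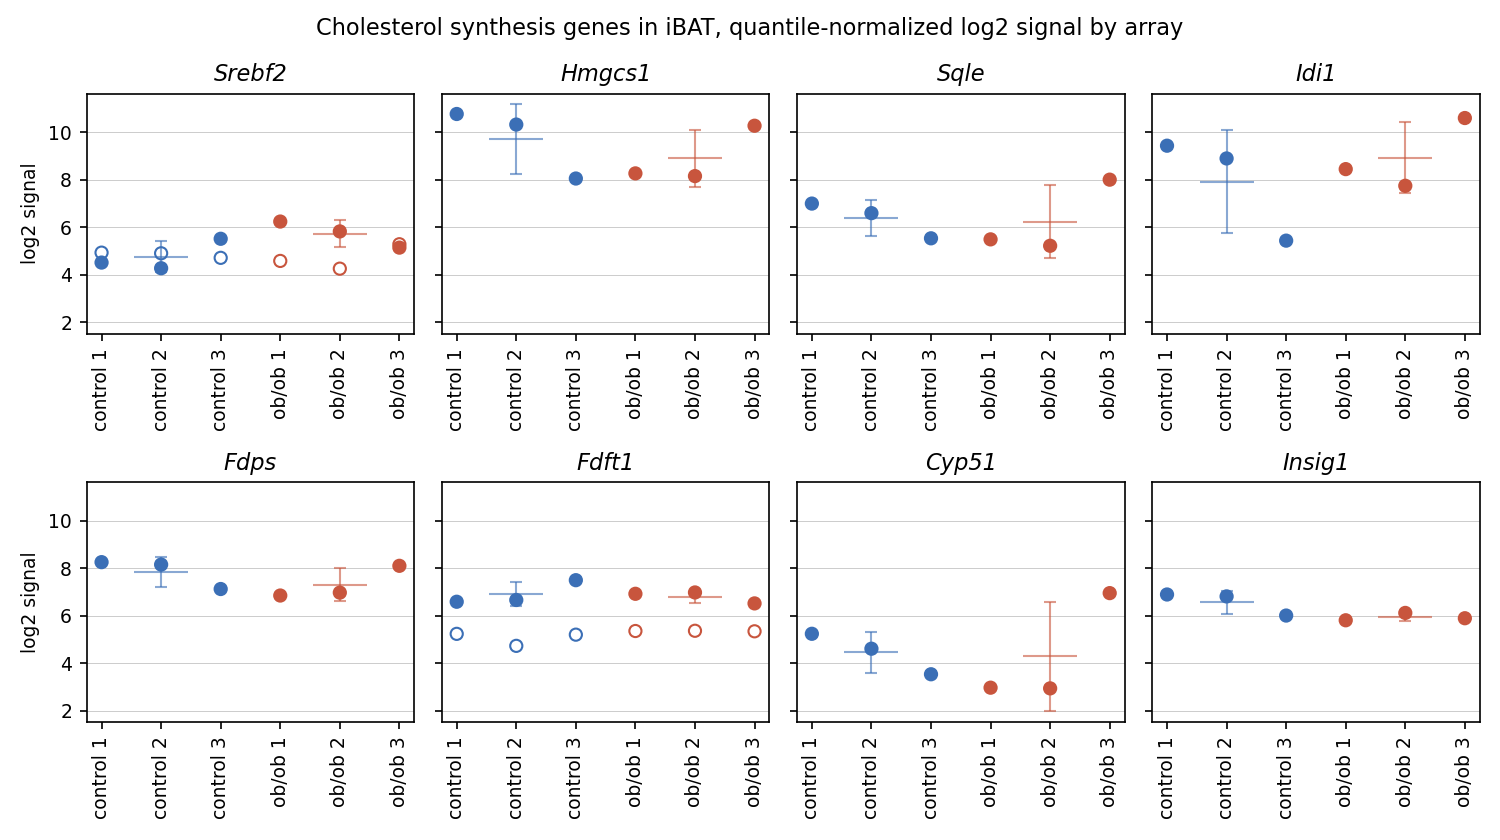
Quantile-normalized log2 signal (vertical axis) of the 8 cholesterol synthesis genes on each array (horizontal axis, controls in blue, *ob/ob* in red), with filled points for the brighter probe, open points for a second probe, and horizontal bars with whiskers for the mean and SD of 3 arrays per group. *Hmgcs1*, *Idi1*, *Sqle*, *Fdps*, and *Cyp51* are lowest in control 3 among controls and highest in *ob/ob* 3 among *ob/ob* samples, and the brighter probes of *Srebf2* and *Fdft1* run the other way.

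Across the set, 5 of the 8 genes (*Hmgcs1*, *Idi1*, *Fdps*, *Sqle*, and *Cyp51*) had control 3 as the lowest control and *ob/ob* 3 as the highest *ob/ob* array, a pattern seen in 34.1% of all genes. In bulk tissue, fewer cells of a type and less RNA per cell cannot be told apart. On average over the 8 genes, each centered on its own mean, the control arrays lay at 0.54, 0.25, and -0.71 and the *ob/ob* arrays at -0.42, -0.55, and 0.89. No brighter probe of the 8 genes had every *ob/ob* array below every control, compared with 4.22% of all genes, or every *ob/ob* array above every control, compared with 3.78% of all genes.

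Without control 3 and *ob/ob* 3, *Insig1* and the enzymes other than *Fdft1* were lower in the *ob/ob* samples, and *Srebf2* was higher by its brighter probe. These 2 arrays were left out because of their own values, so the tests that remain are no independent evidence, and 16259 of 35448 probes then passed a limma adjusted p under 0.05. By the brightest probe of each gene, 27.0% of all genes were called lower and 22.3% higher. Of the 8 genes, 6 were called lower and 1 higher. Both remaining *ob/ob* arrays lay below both controls in 6 of the 8 genes, compared with 36.6% of all genes. The median difference over the 8 genes was -1.18, or -1.04 with *Cyp51* at the bound given next, compared with 0.073 over all genes.

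*Hmgcs1* then differed by -2.34 (SE 0.25, limma adjusted p = 0.00018). *Cyp51* was not well above background on either remaining *ob/ob* array and was at least 2.0-fold higher in the controls. For this bound, the control mean was set against the lowest signal well above background on each *ob/ob* array. The limma adjusted p of 0.00065 was computed on the measured *Cyp51* readings, not on the bound. The values were -1.44 for *Sqle*, -1.29 for *Fdps*, -1.07 for *Idi1*, and -0.89 for *Insig1*, with limma adjusted p values from 0.0021 for *Fdps* to 0.0233 for *Idi1*. *Srebf2* differed by 1.64 (SE 0.25, limma adjusted p = 0.00113) by its brighter probe and by -0.50 (SE 0.24, limma adjusted p = 0.124) by the other. *Fdft1* differed by 0.33 (SE 0.22, limma adjusted p = 0.277). Thus, with 2 arrays a group, the regulator *Srebf2* and the enzymes other than *Fdft1* lay on opposite sides by the brighter *Srebf2* probe only.

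Leaving out 1 of the 2 arrays did not bring any of the 8 genes past the adjusted threshold, and the median over the 8 genes was -0.77 without *ob/ob* 3. Without control 3, *Hmgcs1* differed by -1.65, *Srebf2* by 1.34, and *Insig1* by -0.91, with limma adjusted p values of 0.666, 0.525, and 0.583. Without *ob/ob* 3, *Hmgcs1* differed by -1.50, *Sqle* by -1.02, and *Srebf2* by 1.27, with limma adjusted p values of 0.538, 0.505, and 0.50. *Insig1* kept a similar value under each choice, from -0.61 without *ob/ob* 3 to -0.91 without control 3.

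**Figure D3:**
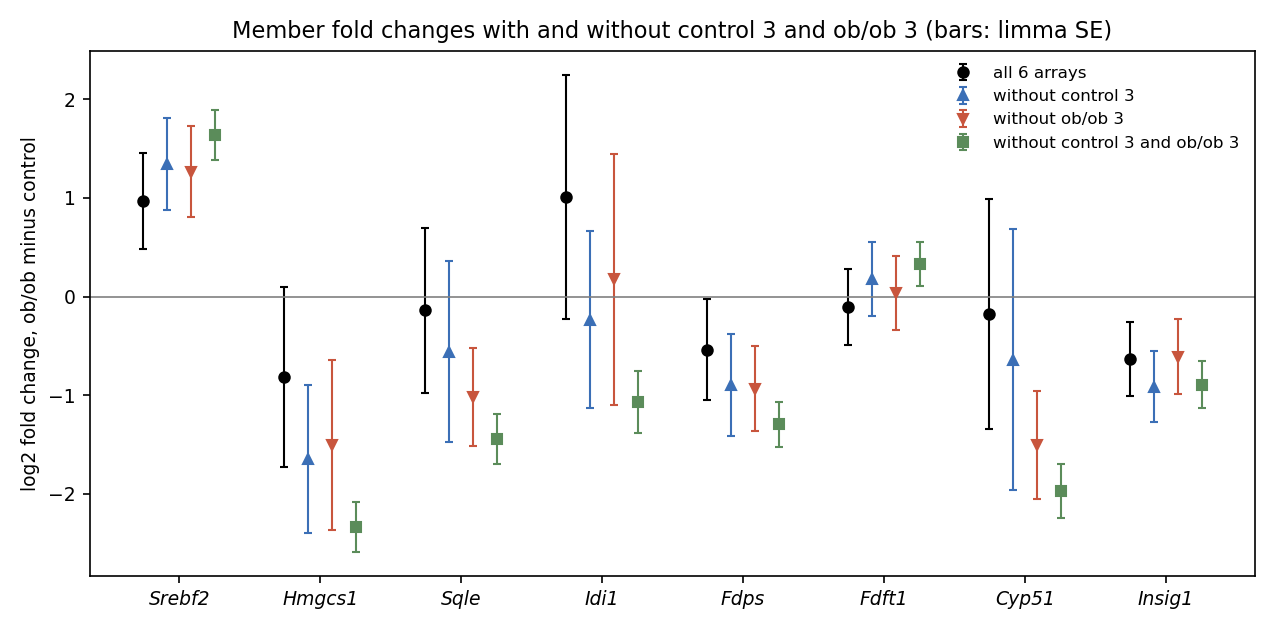
Log2 difference, *ob/ob* minus control (vertical axis, bars are limma standard errors), for the 8 cholesterol synthesis genes with all 6 arrays, without control 3, without *ob/ob* 3, and without both. The standard errors shrink and 5 of the 6 enzymes lie below 0 once both arrays are left out (*Hmgcs1* at -2.34), whereas the brighter *Srebf2* probe lies above 0 under all 4 choices and the *Cyp51* points rest on readings near background.

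Control 1, control 3, and *ob/ob* 1 were read in 1 scan, and the other 3 arrays each had a scan of their own. Within that scan, *ob/ob* 1 differed from the mean of the 2 controls by -1.14 in *Hmgcs1*, -0.84 in *Fdps*, -0.78 in *Sqle*, -0.64 in *Insig1*, -0.12 in *Fdft1*, 1.01 in *Idi1*, and 1.23 in *Srebf2*. These values rest on which control is used. Against control 1, *ob/ob* 1 was lower in *Hmgcs1* by a log2 difference of -2.50 and in *Idi1* by -0.99, whereas against control 3 the differences were 0.22 and 3.01. Within the scan, control 1 exceeded control 3 by 2.72 in *Hmgcs1* and by 4.0 in *Idi1*, so arrays of 1 scan and 1 genotype also stood apart. Entering the scan as a block gave these same within-scan differences, since each of the other 3 arrays is alone in its scan. That fit rests on *ob/ob* 1 against control 1 and control 3, so its lack of calls cannot decide whether the groups differ.

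The 16 other enzymes of sterol synthesis included 13 that were lower on average in *ob/ob* samples and 3 that were higher, with a median log2 difference of -0.31, and 0 were called by limma at an adjusted p under 0.05. The widest differences were those of *Ebp*, the sterol isomerase, *Sc5d*, the sterol desaturase, and *Ggps1*, the geranylgeranyl diphosphate synthase. *Ggps1* lies on the branch to other isoprenoids rather than to sterols, but is counted in this list. *Ebp* gave 9.17, 9.23, and 6.84 on control arrays, against 6.34, 6.53, and 8.72 on *ob/ob* arrays, a difference of -1.22 (SE 0.92). *Sc5d* gave 8.65, 8.40, and 6.83 against 6.21, 6.06, and 8.73, a difference of -0.96 (SE 0.87), and *Ggps1* differed by -0.74 (SE 0.69). All 3 had control 3 on the side of *ob/ob* 1 and *ob/ob* 2, and *ob/ob* 3 on the side of the other controls. *Mvd*, the mevalonate diphosphate decarboxylase, was the only one with every *ob/ob* array above every control, by 0.19 (SE 0.29, exact permutation p = 0.10). That pattern was seen in 3.78% of all genes. Without control 3 and *ob/ob* 3, 7 of the 16 were called lower and 1 higher, compared with 27.0% and 22.3% of all genes. The median was then -0.17 (-0.087 without *ob/ob* 3 alone), and *Ebp*, *Sc5d*, and *Ggps1* differed by -2.77, -2.39, and -1.83.

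Among 10 other regulators of the SREBP pathway, 6 were lower on average and 4 higher, with a median of -0.32 and 0 called by limma. *Scap*, the escort protein that carries SREBP out of the endoplasmic reticulum, was the only one with every *ob/ob* array below every control. That pattern was seen in 4.22% of all genes. *Scap* gave 8.25, 8.21, and 7.90 on control arrays, against 7.57, 7.78, and 7.71 on *ob/ob* arrays, a difference of -0.43 (SE 0.30, limma adjusted p = 1.0, exact permutation p = 0.10). *Mbtps1*, the protease that makes the first cut in SREBP, gave 9.53, 8.83, and 5.27 against 5.63, 5.01, and 10.02, a difference of -0.99 (SE 1.66). *Srebf1*, which encodes the related factor of fatty acid synthesis, gave 7.35, 7.13, and 5.99 against 5.69, 5.46, and 6.37, a difference of -0.98 (SE 0.49, exact permutation p = 0.20). The brighter *Srebf2* probe and *Srebf1* thus lay on opposite sides of 0 on average, and the difference between these 2 genes was not tested. *Erlin2*, whose protein takes part in the breakdown of sterol-sensing proteins, differed by 0.62 (SE 0.84). Without control 3 and *ob/ob* 3, 6 of the 10 were called lower and 0 higher, compared with 27.0% and 22.3% of all genes. The median was then -1.73, and the values were -3.86 for *Mbtps1*, -1.67 for *Srebf1*, -0.55 for *Scap* (limma adjusted p = 0.0831), and -0.60 for *Erlin2* (limma adjusted p = 0.218).

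For the uptake of lipoproteins and the export of cholesterol from the lysosome, 8 of 12 genes were lower on average and 4 higher, with a median of -0.30 and 0 called by limma. *Npc1*, which moves cholesterol out of the lysosome, gave 5.38, 5.05, and 6.50 on control arrays, against 7.06, 6.93, and 6.50 on *ob/ob* arrays. It was the only one of these with no overlap between groups, at a difference of 1.19 (SE 0.47, limma adjusted p = 1.0, exact permutation p = 0.10). However, control 3 and *ob/ob* 3 were level to 2 decimals in *Npc1*, and every *ob/ob* array lay above every control in 3.78% of all genes. *Stard3*, a cholesterol transfer protein of late endosomes, was above background only in control 1, control 2, and *ob/ob* 3 and differed by -1.22 (SE 1.64). *Mylip*, a ubiquitin ligase that promotes breakdown of lipoprotein receptors, differed by -0.64 (SE 1.42). Without control 3 and *ob/ob* 3, 7 of the 12 were called lower and 2 higher, compared with 27.0% and 22.3% of all genes. The median was then -1.47, and *Npc1* and *Mylip* differed by 1.78 and -3.05. *Stard3* was then above background only in the controls, at least 5.31-fold higher there.

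Of 10 genes of cholesterol efflux, esterification, and oxysterols, 9 were tested, all but *Cyp7b1*, with 6 lower on average, 3 higher, a median of -0.26, and 0 called by limma. *Nr1h3*, the liver X receptor alpha, gave 10.31, 10.13, and 7.55 on control arrays, against 7.38, 6.88, and 9.07 on *ob/ob* arrays, a difference of -1.55 (SE 0.93). *Nr1h2*, the liver X receptor beta, differed by -0.57 (SE 0.50). *Cyp27a1*, a mitochondrial sterol hydroxylase, was not well above background on any control array and was above it on all 3 *ob/ob* arrays. It gave 4.54, 4.52, and 4.76 in the *ob/ob* samples and was at least 1.59-fold higher there. For this bound, the *ob/ob* mean was set against the lowest signal well above background on each control array. The limma adjusted p of 1.0 and the exact permutation p of 0.10 were computed on the measured readings, not on the bound. *Cyp27a1* passed the filter on dim signals only through the *ob/ob* arrays, so its lack of overlap is no independent evidence. Without control 3 and *ob/ob* 3, 4 of the 9 were called lower and 2 higher, compared with 27.0% and 22.3% of all genes. The median was then -0.90, and *Nr1h3* differed by -3.08 and *Nr1h2* by 0.034. *Cyp27a1* was then at least 1.64-fold higher in the *ob/ob* samples.

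**Figure D4:**
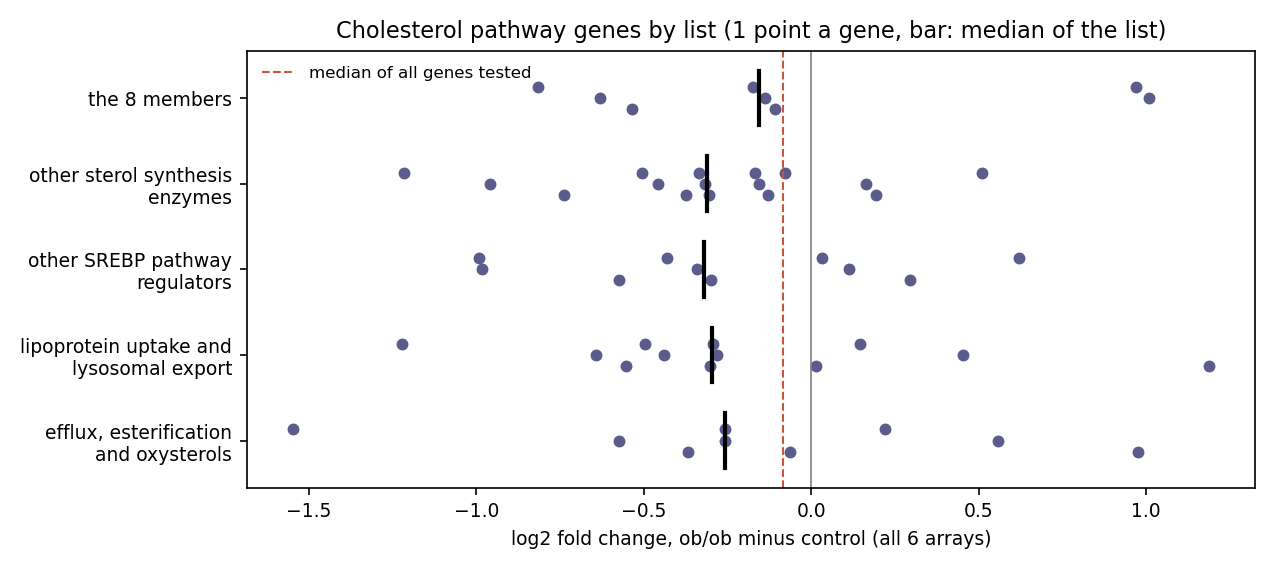
Log2 difference, *ob/ob* minus control over all 6 arrays (horizontal axis), with 1 point per gene, for the 8 cholesterol synthesis genes and the 4 other lists of the pathway, where vertical bars mark the list medians and the dashed line marks the median of all genes tested (-0.086). All 5 medians lie between -0.32 and -0.16, and each list has genes on both sides of 0.

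Markers of the cell types in the tissue also differed between arrays of 1 group. All 9 brown adipocyte markers were lower on average in *ob/ob* samples, with a median of -2.32. A marker above background only on control arrays passed the filter on dim signals only through them, so its lower value is no independent evidence. The median log2 signal of the 9 was 10.06, 10.43, and 8.93 on control arrays, against 7.97, 7.90, and 7.58 on *ob/ob* arrays. Their summed signal, which rests mostly on the brightest markers, was 91616, 56587, and 6484 on control arrays, against 4626, 4198, and 12384 on *ob/ob* arrays. *Ucp1*, the uncoupling protein that defines brown fat, was above background on all arrays and gave 13.05, 11.72, and 9.48 on control arrays, against 8.93, 9.12, and 10.03 on *ob/ob* arrays. The 6 general adipocyte markers had a median of -0.015, and *Adipoq* gave 11.60, 11.13, and 8.63 against 9.53, 8.71, and 13.11, with control 3 the lowest control and *ob/ob* 3 the highest *ob/ob* array, as for *Hmgcs1* and *Sqle*. The 7 skeletal muscle markers had a median of -1.02, with *Acta1* at 9.54, 9.64, and 7.56 against 6.44, 6.76, and 11.35. The 9 macrophage markers tested of 10 had a median of 0.94, with 7 higher on average, and *Adgre1* differed by -0.21. Their summed signal ran from 4618 to 15828 in controls and from 7027 to 44793 in *ob/ob* samples. The largest sum of each group came mostly from a single marker, so the sums do not describe the markers as a set. It was a different marker in each group, and the one behind the control sum differed by -1.43 and the one behind the *ob/ob* sum by 4.13. The 5 endothelial markers had a median of -1.17, the 5 lymphocyte markers -0.73, the 4 erythrocyte markers -0.32, and the 6 white adipocyte markers -0.25. *Lep*, whose mutated transcript is still made in *ob/ob* mice, gave 5.74, 4.57, and 5.30 on control arrays, against 6.68, 5.83, and 9.33 on *ob/ob* arrays. Every *ob/ob* array thus lay above every control in *Lep* (exact permutation p = 0.10), as in 3.78% of all genes. Whether *Lep* can check the labels was not tested. Without control 3 and *ob/ob* 3, the medians were -3.91 for brown adipocyte markers (-3.69 with 2 markers at their bounds) and -1.44 for general adipocyte markers. Of these, 8 of 9 brown and 6 of 6 general adipocyte markers were called lower, compared with 27.0% of all genes. The brown markers called include the one above background only on control arrays, whose call is no independent evidence. The medians were then -2.99 for muscle, -2.23 for endothelial, and -2.22 for erythrocyte markers, and 0.36 for macrophage, 0.18 for white adipocyte, and -0.31 for lymphocyte markers. The part of these markers in the values of the cholesterol synthesis genes was not tested.

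Likeness varied among the 8 genes, and pairs of other genes were not taken for comparison. The likeness of genes was taken as the root mean square difference over the 6 arrays after each gene was centered on its own mean. The closest pairs were *Fdps* with *Insig1* (0.43 log2 units) and *Sqle* with *Cyp51* (0.46), and the farthest was *Srebf2* with *Idi1* (1.98). Against the mean of the 8 genes, *Fdps* was nearest (0.27) and *Srebf2* farthest (1.18). The median over all 15884 genes detected on all 6 arrays was 0.90. Of 15877 other genes detected on all 6 arrays, 622 lay nearer to that mean than *Fdps* did, and 11794 lay nearer than *Srebf2*. The 5 nearest were *Pabpc5* (0.047), *Rps15a* (0.047), *Dph5* (0.056), *Gmcl1* (0.061), and *Cnst* (0.062), none of which belongs to the lists of the pathway. *Rps15a*, a protein of the small ribosomal subunit, gave 10.42, 10.20, and 9.15 on control arrays, against 9.56, 9.43, and 10.85 on *ob/ob* arrays, which is the order of arrays in the mean of the 8 genes.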

How the data were processed

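Total RNA of 6 iBAT samples was hybridized to single-dye (Cy3) Agilent arrays. The authors deposited for each array an intensity per spot, from which background had been subtracted by Agilent Feature Extraction (version 11.0.1.1) and not normalized between arrays. They also deposited log2 values after quantile normalization, which correlated at 0.987 to 0.998 with the log2 intensity of the same array and served as an alternative. After control and outlier spots were removed, log2 intensities of repeated spots were averaged and the arrays quantile normalized. Probes well above background, by at least 50% of their spots, on at least 3 of 6 arrays were tested.

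Differences were tested with limma (version 3.58.1, R version 4.3.3), *ob/ob* minus control, without covariates and with Benjamini-Hochberg adjustment over all 35448 probes. The brightest probe by its mean over 6 arrays stood for a gene. RefSeq (GRCm38.p6) gave names to 27234 of the 28684 probes that carry its accessions. The code was tested on simulated data. The genes, the lists of the pathway and of cell type markers (from general knowledge), and the alternatives were chosen with earlier results of these data known. Named were all 8 genes, the genes of each pathway list with no overlap between groups and, where fewer than 3, the 3 with the widest differences, a fixed set of markers, and the 5 nearest genes by likeness. Some list genes are counted and not named here.

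The alternatives were 75th percentile scaling, normexp (offset 50) on the median spot signal, the deposited normalized values, no filter, detection on all 6 arrays, the methods' t-test, limma with trend and robust estimation, the replicate number and the scan as blocks, the mean of a gene's probes, each array left out, and control 3 and *ob/ob* 3 left out together. The arrays carry no counts, and their number limits the precision. Figures were drawn with matplotlib (version 3.10.9) in Python (version 3.11.15).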

Additional observations from a re-analysis of the deposited data

How the results depend on the processing

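No cholesterol synthesis gene passed an adjusted limma p under 0.05 under any alternative that kept control 3 or *ob/ob* 3. Under all 17 alternatives, 4 to 6 genes were below 0. These were out of 8 genes, or out of 7 with detection on all 6 arrays, which left out *Cyp51*. Without both arrays, 7 genes and 16259 probes passed, the median of the 8 genes was -1.18, *Idi1* turned to -1.07 and *Fdft1* to 0.33, and the list medians were -1.73 (SREBP regulators), -1.47 (uptake), and -0.90 (efflux). With 1 array left out, 0 probes passed, and the ranges were -0.77 to 0.089 for the median of the 8 genes, -1.06 to 0.24 for the SREBP regulators, -0.95 to 0.16 for uptake, -0.80 to 0.18 for efflux, -0.45 to -0.087 for the other sterol synthesis enzymes (the latter without *ob/ob* 3), -1.02 to 0.37 for *Sqle*, -1.51 to 0.50 for *Cyp51*, -0.23 to 1.77 for *Idi1*, and -0.27 to 0.18 for *Fdft1*. The brighter *Srebf2* probe stayed above 0 (0.72 to 1.34) and *Hmgcs1* (-1.65 to -0.29), *Fdps* (-0.93 to -0.31), and *Insig1* (-0.91 to -0.47) below 0. *Srebf2* was 0.32 with normexp and 0.41 with the mean of its probes, and its second probe was below 0 (-0.14). *Cyp51*, whose values near background are not exact, turned to 0.061 with normexp, and *Fdft1* to 0.095 with the mean of its probes. Limma with trend and robust estimation called 1 probe (adjusted p 0.0413), which is none of the 8 genes. Scaling to the 75th percentile moved the median difference of all probes from -0.073 to -0.33. CCAAT on the strand of the gene was in 1 window. The cause was not tested in any case.

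The labels do not say whether the replicate numbers pair the samples. The deviations of same-numbered arrays from their group means correlated at -0.78, -0.66, and -0.85. These values cannot settle the pairing, since control 3 and *ob/ob* 3 each stood apart from their own group and shape every such correlation. With the replicate number as a block, 0 probes passed the adjusted threshold, 359 had an unadjusted p under 0.05, and no gene was called. The fold changes of the 8 genes were as without the block (*Srebf2* 0.97, *Hmgcs1* -0.82), which the balanced design fixes in advance.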
